A study of Homo sapiens with 16 samples.

Results

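The comparison described here sets the first hours of HER2 kinase inhibition in MCF-10A cells against the hours that followed. Its 4 later arrays were from cells treated for 12, 15, 18 and 21 hours, and its 4 earlier arrays were from 0, 3, 6 and 9 hours. These are 8 of the 16 arrays of a time series that ran to 45 hours. They were chosen by treatment time alone, and a probe was compared when 3 or more of the 8 arrays gave it a detection p below 0.05, which kept 11054 of 20589 rows of the array. MCF-10A is a nontransformed human mammary epithelial line, grown here in serum-free medium with insulin, hydrocortisone and EGF. CP724,714, a small molecule that blocks the kinase of HER2, was added at 1 µM to every culture except that of 0 hours, which was untreated. RNA came from parallel cultures, with 1 Illumina human Ref8v2 array for each time point. The medium was renewed when the inhibitor was added, and no cultures without inhibitor were followed over time. The inhibitor, the fresh medium and the time in culture therefore cannot be told apart. The arrays of a group are neighbouring time points and not repeats of 1 condition, so the spread within a group also holds change with time, and no p-value here measures the spread between cultures.

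HER2 has no ligand of its own and signals as a partner of EGFR and HER3, mainly through the ERK and PI3K pathways. Mammary epithelial cells in serum-free medium need EGF and insulin to pass from G1 into S phase. In that passage E2F factors are released from the retinoblastoma family and switch on the genes of DNA replication, and a later wave of genes, controlled through CHR elements in their promoters, builds the mitotic apparatus. PI3K signalling also raises sterol, lipid and ribosome synthesis and keeps FOXO factors out of the nucleus. ATF4 responds to lack of amino acids and to stress.

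Between 10325 and 10777 rows were detected on each of the 8 arrays. Across probes, arrays of 12 to 21 hours correlated with each other at r = 0.992 to 0.995, and arrays of 0 to 9 hours at r = 0.961 to 0.990. The median SD of a probe on the log2 scale was 0.23 over the early arrays and 0.14 over the later ones. The SD of the negative control beads, inferred from the detection p-values, ranged from 42.1 to 44.0 intensity units on the early arrays and from 36.3 to 39.6 on the later ones, with no overlap, and its part in the results was not tested. Basal markers were present, with KRT5 at a mean log2 level of 15.02 and KRT17 at 13.55 over the 8 arrays, while KRT14 was not tested because it was detected on fewer than 3 arrays. Of the 8 basal markers 7 were tested, and TP63 alone was called, higher, from a probe at background on every array of 0 to 9 hours. The call was lost when any of 5 arrays was left out (adjusted p up to 0.069, without that of 12 hours). Of 9 luminal markers 6 were tested, of 9 mesenchymal markers 3, and of 8 immune and endothelial markers 3. KRT18 rose by 0.35, but lost the call when any of 3 arrays was left out (adjusted p up to 0.053, without that of 21 hours). Its dimmer probe did not rise (-0.15, adjusted p = 0.70). KRT19 fell by 0.76 and the mesenchymal factor SNAI2 by 1.17 on the log2 scale. CD14, a lipopolysaccharide receptor of myeloid cells, was at least 1.64-fold higher, with no early array above background, and PECAM1, an endothelial adhesion molecule, rose by 0.87, while PTPRC, CD3E, CD79A, CDH5 and VWF were not detected often enough to be tested.

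Of the 11054 probes tested, 2221 (20.1%) differed between 12 to 21 hours and 0 to 9 hours at an adjusted p under 0.05 in limma. Of these, 1122 (10.2% of the probes tested) were higher and 1099 (9.94%) lower at 12 to 21 hours. Only 118 rose and 135 fell by 2-fold or more. The 2 groups did not overlap for 2693 of all probes tested (24.4%) and for 2016 of the 2221 called. A lack of overlap, given below for single genes, therefore adds little to a call. A gene is called higher or lower below when its brightest probe passed this test, and differences are given on the log2 scale of normalized intensity, as 12 to 21 hours minus 0 to 9 hours. At an unadjusted p under 0.05 there were 3781 probes. Under median scaling of the arrays in place of quantile normalization, the median difference of all probes was 0.10 rather than 0.00, and the calls split into 1954 higher and 623 lower. The counts were also sensitive to single arrays, with 592 higher and 560 lower without the array of 15 hours and 1607 and 1527 without that of 9 hours. They also fell by more than 1.5 times without the array of 3 hours (707 and 625), of 12 hours (659 and 612) and of 18 hours (736 and 676).

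For each probe the largest step between neighbouring arrays from 0 to 21 hours was located. It lay between 9 and 12 hours for 63.8% of the probes called higher, for 62.5% of those called lower and for 26.8% of all probes tested. Since the comparison itself is cut at that interval, the first 2 shares follow in part from the cut, and the last does not. The interval from 3 to 6 hours held the largest step for 23.6% of all probes but for only 10.5% of those called higher. After 12 hours no interval held more than 7.76% of the largest steps of all probes. In absolute terms 848 probes moved by at least 1.7-fold from 9 to 12 hours and 858 from 3 to 6 hours, against 93 to 133 in each interval after 12 hours.

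**Figure D1:**
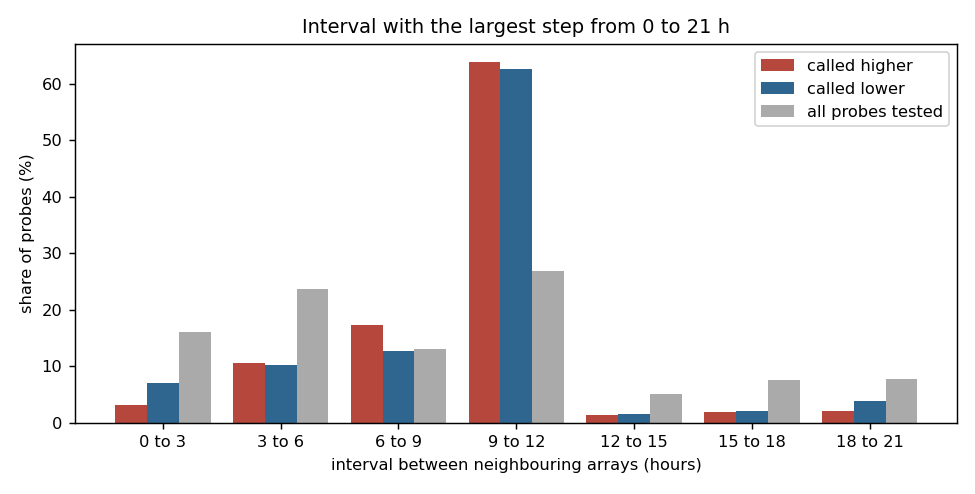
Share of probes (y axis, %) whose largest step between neighbouring arrays fell in each interval (x axis, hours), for probes called higher, called lower and all probes tested. The interval from 9 to 12 hours held 63.8% and 62.5% of the called probes and 26.8% of all probes, and the 3 intervals after 12 hours held few.

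The genes of DNA replication rose as a group. Of 42 genes listed for replication and nucleotide supply 40 were tested, and 29 (72.5%) were called higher and 1 lower, against 10.2% and 9.94% of all probes. Leaving out 1 array gave 20 to 30 called higher, with 20 without that of 6 hours. The median difference of the 40 was 0.70, where that of all genes tested was 0.00. The largest change was that of POLE2, a subunit of the leading strand polymerase. Its log2 level was 6.60, 6.47, 7.21 and 8.34 at 0, 3, 6 and 9 hours and 8.83, 8.79, 8.72 and 8.89 at 12, 15, 18 and 21 hours. The level climbed from 3 to 12 hours, the groups did not overlap, and the later arrays were nearly level. POLE2 rose by 1.65 ± 0.35 (SE, 4 against 4 arrays, adjusted p = 0.0099). MCM10, a replication factor that acts with the replicative helicase, had log2 levels of 7.85, 7.07, 7.57 and 9.04 in the first group and of 9.69, 9.64, 9.08 and 9.43 in the second. The array of 9 hours was already close to the later ones, at 9.04 against a lowest later value of 9.08, and the difference was 1.58 ± 0.35 (adjusted p = 0.013). MCM6, a subunit of the helicase ring, was at 5.77, 5.85, 6.08 and 6.84 and then at 7.12, 7.66, 7.58 and 7.56, and only 1 of its early arrays exceeded background. CDC7, the kinase that fires origins, was at 7.27, 7.21, 6.98 and 7.87 and then at 8.96, 8.90, 8.54 and 8.73. The groups did not overlap for MCM6 or CDC7, with differences of 1.34 ± 0.24 (adjusted p = 0.0047) and 1.45 ± 0.20 (adjusted p = 0.0014).

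The remaining helicase subunits MCM2, MCM3, MCM4, MCM5 and MCM7 were also called higher, by 0.96, 1.06, 0.89, 0.89 and 0.68. So were CDC45 (1.29), which joins the helicase, and GINS2 and GINS4 (1.00 and 1.20) of the complex that holds it together. Of the clamp and its loaders PCNA rose by 0.58 and RFC2, RFC3, RFC4 and RFC5 by 0.52 to 0.82. RRM1 and RRM2, the subunits of ribonucleotide reductase, rose by 0.71 and 0.70. The exception was POLA1, the catalytic subunit of the priming polymerase, which fell by 0.62 while POLA2 of the same complex rose by 0.98. Thymidylate synthase (TYMS, 0.12), thymidine kinase (TK1, 0.17) and FEN1 (0.34) did not pass the test. Of the E2F factors, E2F1, E2F2 and E2F8 rose by 0.92, 1.19 and 1.01, and E2F7 had a difference of 1.02 that did not pass. The calls of E2F1, E2F2 and E2F8 were less firm. They were lost when any of 3, 5 and 7 arrays was left out (adjusted p up to 0.064, 0.092 and 0.105). E2F8 was detected on only 1 early array. CDKN1C, an inhibitor of cyclin-dependent kinases, fell by 1.03. It lost the call when any of 4 arrays was left out (adjusted p up to 0.067, without that of 15 hours).

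Mitotic genes rose as well. All 50 listed genes were tested, and 31 (62%) were called higher and none lower, against 10.2% and 9.94% of all probes. The median difference was 0.63. All 50 differences were positive. KIF14, a kinesin of cytokinesis, had log2 levels of 7.89, 7.60, 7.56 and 7.26 from 0 to 9 hours and of 9.00, 8.95, 8.58 and 8.33 from 12 to 21 hours. It declined on each array to 9 hours, stood highest at 12 hours and declined again, without overlap between the groups (difference 1.14 ± 0.19, adjusted p = 0.0038). CDCA3, needed for entry into mitosis, was at 10.17, 9.99, 9.96 and 10.04 and then at 11.36, 11.22, 11.02 and 10.66. SPC25 of the outer kinetochore was at 9.28, 9.54, 9.26 and 9.15 and then at 10.36, 10.69, 10.20 and 10.17. CDCA3 and SPC25 were higher on every later array, by 1.02 ± 0.14 and 1.05 ± 0.14 (adjusted p = 0.0017 and 0.0014). KIF15, a spindle kinesin that was not on the list, was among the 12 largest increases of all genes, at 1.61 ± 0.22 (adjusted p = 0.0014). CCNB1, the mitotic cyclin, rose by 0.90, MKI67 by 0.90, TOP2A by 0.72 and AURKB by 0.64, while PLK1 (0.39) and FOXM1 (0.29) did not pass. The count of 31 was 17 without the array of 15 hours, 19 without that of 12 hours and 44 under median scaling.

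The 2 lists differed in when they moved. Of the 29 replication genes called higher, 16 had their largest step between 6 and 9 hours and 13 between 9 and 12 hours. Of the 31 mitotic genes called higher, none had it between 6 and 9 hours and 29 had it between 9 and 12 hours. Relative to 0 hours, the median of all tested replication genes stood at -0.28 at 6 hours, at 0.37 at 9 hours and at 0.70 at 12 hours. The median of the mitotic genes fell to -0.53 at 9 hours and was at 0.53 at 12 hours, a swing across 1 interval, and then declined to 0.15 at 21 hours. Both medians were below the level of 0 hours at 45 hours, at -0.77 for replication and -1.33 for mitosis. The difference in timing between the lists was not tested, since each time point has 1 array.

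**Figure D2:**
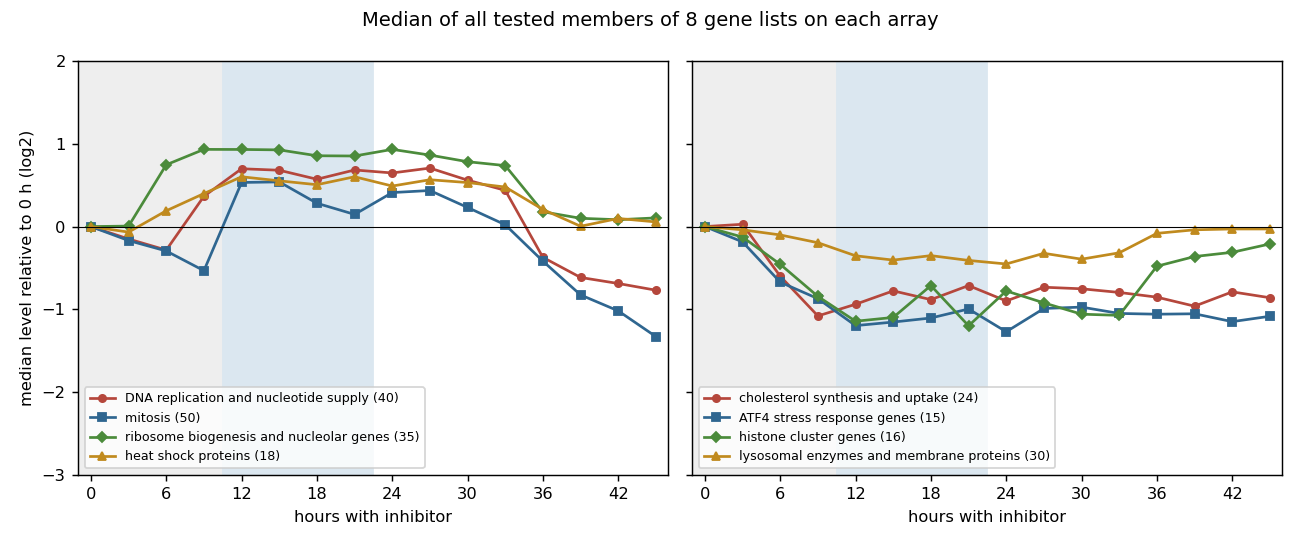
Median level of all tested members of 8 gene lists relative to 0 hours (y axis, log2) on each of the 16 arrays (x axis, hours with inhibitor), with the number of members in the legend. The 2 shaded spans are the arrays compared, 0 to 9 hours in grey and 12 to 21 hours in blue. Replication genes were at 0.37 at 9 hours, when mitotic genes were at -0.53, and both lists were above 0 from 12 to 21 hours.

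Promoters of these genes were taken from RefSeq (GRCh38.p14). The 250 bases before the annotated start were searched on both strands for the E2F octamers TTTGGCGC, TTTCCCGC, TTTGCCGC and TTTCGCGC and for the CHR element TTTGAA. An E2F octamer was present for 14 of 35 replication genes with a promoter in the table (40%) and for 2 of 40 mitotic genes (5%), beside 3.4% of all 27305 genes with a promoter and 5.8% of the genes tested on the array. The CHR hexamer was present for 2 of the 35 replication genes (5.71%) and for 21 of the 40 mitotic genes (52.5%), beside 16.1% of all genes and 12.4% of those tested. CCAAT, the box bound by NF-Y, was present for 33 of the 40 mitotic genes (82.5%), beside 37% of all genes and 42.4% of those tested. These are counts of letters, with no test. POLE2 and MCM10, with the largest increases, held none of the 4 octamers in this window. The called replication genes with the largest increase that did hold one are shown first, 5' to 3' on the strand of the gene and ending at the base before the start, with the octamers in capitals. They are CDC7 (chr1:91500862-91501111, plus strand), MCM6 (chr2:135876444-135876693, minus strand) and MCM3 (chr6:52284743-52284992, minus strand).
CDC7: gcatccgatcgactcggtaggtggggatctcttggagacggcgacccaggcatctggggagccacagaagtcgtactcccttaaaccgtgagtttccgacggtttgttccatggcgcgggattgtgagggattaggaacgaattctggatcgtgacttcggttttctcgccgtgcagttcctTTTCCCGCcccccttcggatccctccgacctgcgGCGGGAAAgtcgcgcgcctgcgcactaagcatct
MCM6: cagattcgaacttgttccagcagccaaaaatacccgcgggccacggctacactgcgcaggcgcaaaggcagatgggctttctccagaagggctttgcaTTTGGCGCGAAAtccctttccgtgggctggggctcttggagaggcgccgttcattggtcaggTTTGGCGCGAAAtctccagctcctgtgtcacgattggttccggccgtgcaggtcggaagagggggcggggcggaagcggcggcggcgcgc
MCM3: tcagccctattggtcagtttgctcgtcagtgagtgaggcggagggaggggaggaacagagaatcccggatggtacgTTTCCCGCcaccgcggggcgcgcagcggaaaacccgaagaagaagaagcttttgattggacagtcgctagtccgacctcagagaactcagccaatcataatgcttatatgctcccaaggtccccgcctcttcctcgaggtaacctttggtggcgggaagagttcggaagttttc
In MCM6, 4 matches overlap in pairs on opposite strands and form 2 runs of capitals. The promoter of CDC7 holds 1 match on each strand, 68 and 34 bases before the start, and that of MCM3 holds 1 match 174 bases before it.

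The mitotic genes with the largest increase and a CHR hexamer are shown in the same way, with TTTGAA or its reverse TTCAAA in capitals. They are SPC25 (chr2:168890431-168890680, minus strand), KIF11 (chr10:92592880-92593129, plus strand) and HMMR (chr5:163460382-163460631, plus strand).
SPC25: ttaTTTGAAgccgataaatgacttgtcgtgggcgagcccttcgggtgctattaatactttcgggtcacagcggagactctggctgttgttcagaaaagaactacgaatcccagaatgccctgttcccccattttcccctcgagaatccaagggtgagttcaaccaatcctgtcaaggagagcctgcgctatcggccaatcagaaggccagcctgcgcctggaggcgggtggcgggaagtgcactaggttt
KIF11: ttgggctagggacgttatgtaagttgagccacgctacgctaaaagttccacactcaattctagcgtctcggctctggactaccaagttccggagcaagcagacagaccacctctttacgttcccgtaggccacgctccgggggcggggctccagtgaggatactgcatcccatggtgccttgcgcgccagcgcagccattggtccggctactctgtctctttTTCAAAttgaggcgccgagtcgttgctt
HMMR: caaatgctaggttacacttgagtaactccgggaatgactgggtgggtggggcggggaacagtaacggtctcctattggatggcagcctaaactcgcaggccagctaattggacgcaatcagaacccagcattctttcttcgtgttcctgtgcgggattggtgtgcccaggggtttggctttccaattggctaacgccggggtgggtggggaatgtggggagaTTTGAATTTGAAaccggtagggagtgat
In KIF11, the kinesin that separates the spindle poles, and in HMMR, a hyaluronan receptor of the spindle, matches lay 28 bases before the start, and HMMR held another at 22 bases. The match in SPC25 was 247 bases before the start. KIF11 rose by 0.93 and HMMR by 0.90.

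Of 35 tested genes for ribosome biogenesis and the nucleolus 8 (22.9%) were called higher and none lower, against 10.2% and 9.94% of all probes. Of the 35 differences 33 were positive, and the median was 0.46. NOP56, a core protein of the small nucleolar particles that methylate ribosomal RNA, was at log2 levels of 12.58, 12.01, 12.47 and 12.88 and then at 13.65, 13.64, 13.41 and 13.46. The groups did not overlap, and NOP56 rose by 1.05 ± 0.16 (adjusted p = 0.0021). BOP1, which processes the large subunit, was at 11.68, 11.41, 12.00 and 12.53 and then at 12.95, 12.81, 12.94 and 12.83, so that 9 hours was nearest to the later arrays (0.97 ± 0.20, adjusted p = 0.0081). The list as a whole moved within the first group. Its median was at 0.75 relative to 0 hours at 6 hours and at 0.93 at 9 hours, and stood at 0.85 to 0.93 from 12 to 21 hours. Without the array of 9 hours 20 of its genes were called higher, and without that of 15 hours 4 were, while median scaling gave 13. The E-box CACGTG was in the window of 3 of 26 genes of the list (11.5%), beside 11.2% of the genes tested.

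Of 18 tested heat shock proteins and cochaperones 10 (55.6%) were called higher and none lower, with a median of 0.49. HSP90AA1, the inducible cytosolic HSP90, ranged from 12.73 at 0 hours to 13.25 at 9 hours and was then at 13.72, 13.54, 13.51 and 13.57, with a difference of 0.64 ± 0.11 (adjusted p = 0.0037) and no overlap. A dimmer probe of HSP90AA1 differed by 0.28 and did not pass (adjusted p = 0.13). HSPH1 and CHORDC1, a nucleotide exchange factor for HSP70 and a partner of HSP90, both rose by 0.70. HSPH1 lost the call when any of 5 arrays was left out (adjusted p up to 0.087, without that of 12 hours). CHORDC1 lost it when any of 6 was left out (up to 0.096, without that of 21 hours). HSPA8, HSPD1 and HSPE1 rose by 0.53, 0.42 and 0.51, whereas the classical stress-inducible members HSPA1A (0.11), HSPA1B (0.06), DNAJB1 (-0.08) and HSPB1 (-0.14) did not pass. The count of 10 was 4 without the array of 3, 12, 15 or 21 hours, and under cyclic loess 9 were higher and 1 lower. The heat shock element GAANNTTC was present in the 250 bases before the start of 10 of the 18 genes (55.6%), beside 7.05% of all genes and 5.81% of those tested. It is shown in capitals for the 2 called members with the largest rise that held it, CHORDC1 (chr11:90223050-90223299, minus strand) with 3 matches and HSP90AA1 (chr14:102087045-102087294, minus strand) with 1.
CHORDC1: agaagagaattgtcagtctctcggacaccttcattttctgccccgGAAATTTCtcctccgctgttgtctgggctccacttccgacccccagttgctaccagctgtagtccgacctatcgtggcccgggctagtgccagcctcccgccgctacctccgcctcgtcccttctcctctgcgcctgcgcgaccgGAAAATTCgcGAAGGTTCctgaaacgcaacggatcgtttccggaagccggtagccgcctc
HSP90AA1: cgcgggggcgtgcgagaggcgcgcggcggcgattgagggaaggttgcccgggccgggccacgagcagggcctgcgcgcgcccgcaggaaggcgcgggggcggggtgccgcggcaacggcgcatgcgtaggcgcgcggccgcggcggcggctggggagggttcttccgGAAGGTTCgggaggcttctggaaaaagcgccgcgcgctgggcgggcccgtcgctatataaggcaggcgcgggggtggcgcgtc
In the endoplasmic reticulum HSPA5, the lumenal HSP70, rose from log2 levels of 9.34 to 9.89 in the first group to 10.43 to 10.73 in the second (1.09 ± 0.14, adjusted p = 0.0010). Of the 19 genes tested for the unfolded protein response 5 (26.3%) were higher, among them HSP90B1 (0.44) and DNAJB11 (0.45). Another 2 (10.5%) were lower, WFS1 (-0.85) and SEC61B (-0.28). The shares of all probes were 10.2% and 9.94%. Of 36 proteasome subunits 7 (19.4%) were higher and none lower, led by PSMD1 at 0.73, with 2 called without the array of 15 hours and 15 under median scaling.

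**Figure D3:**
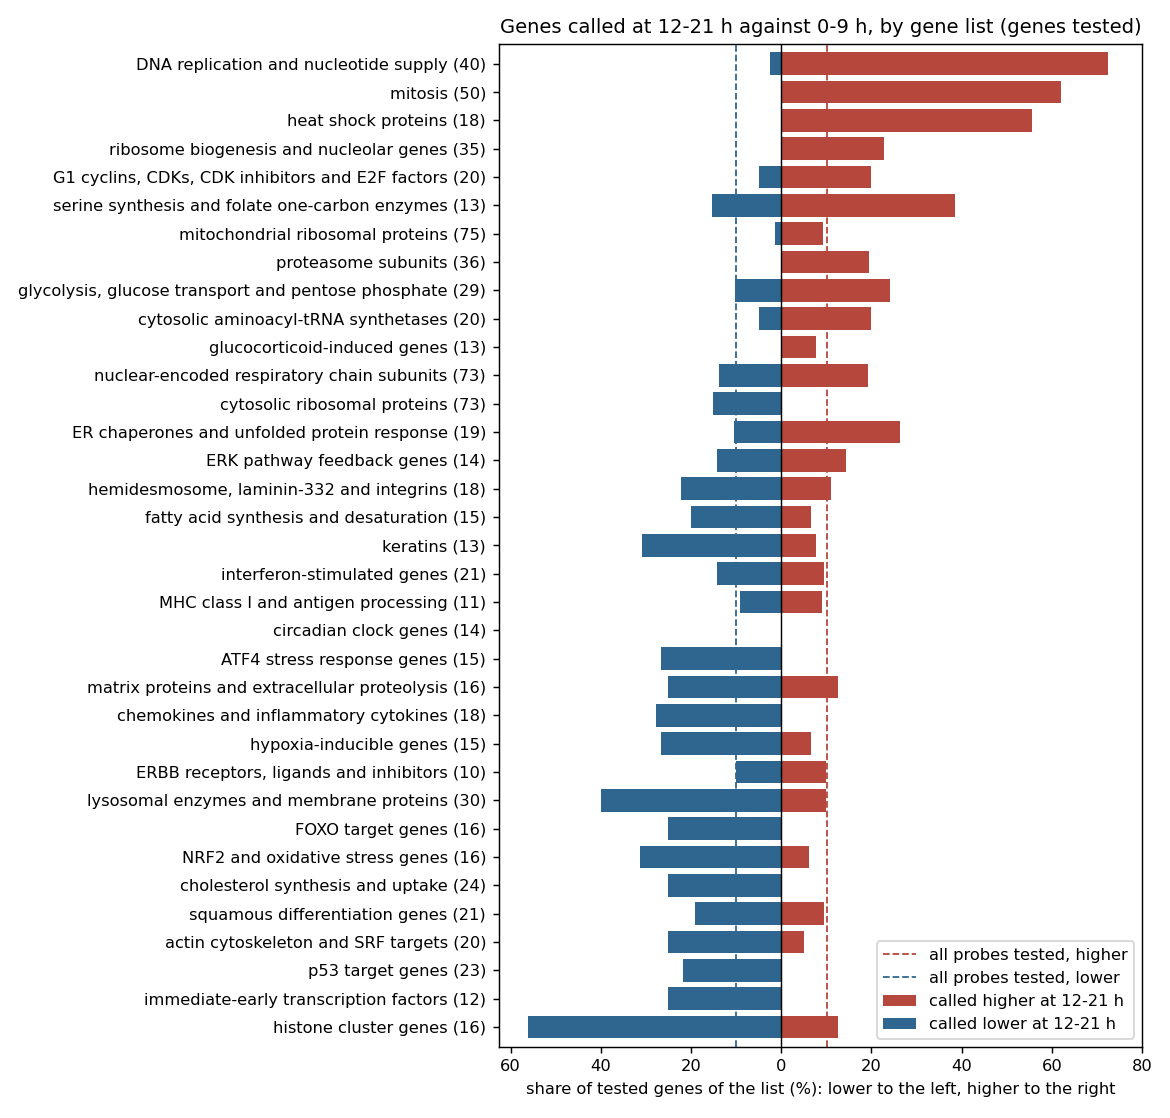
Share of the tested genes of each list with at least 10 tested genes that were called higher (red, to the right) or lower (blue, to the left) at 12 to 21 hours, in percent, ordered by the median difference, with the number tested in brackets. Dashed lines mark the shares of all probes tested, 10.2% and 9.94%. Replication (72.5%), mitosis (62%) and heat shock proteins (55.6%) extended farthest to the right and histone genes (56.2%) farthest to the left.

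Genes of sterol synthesis were among the decreases, but not the whole pathway. Of 24 tested genes for cholesterol synthesis and uptake 6 (25%) were called lower and none higher, against 9.94% and 10.2% of all probes. The median difference of the 24 was -0.26. TM7SF2, a sterol C14 reductase, was at log2 levels of 11.69, 11.48, 11.04 and 10.37 from 0 to 9 hours and at 9.11, 9.07, 9.14 and 9.16 from 12 to 21 hours. It declined throughout the first group and was flat and lower in the second (difference -2.03 ± 0.24, adjusted p = 0.00085). LSS, which closes the ring of lanosterol, was at 12.91, 12.80, 12.29 and 11.60 and then at 10.97, 10.92, 11.21 and 11.15 by its brighter probe, a difference of -1.34 ± 0.24 (adjusted p = 0.0055). A dimmer probe of LSS fell by 2.55. MVD, ACAT2, FDPS and EBP fell by 1.29, 0.97, 0.91 and 0.70. The call of MVD was lost when any of 3 arrays was left out (adjusted p up to 0.059, without that of 12 hours). HMGCS1, an early enzyme of the pathway, and INSIG1, a sterol-regulated brake on it, were not called, at -0.09 and 0.46. The median of all 24 genes relative to 0 hours was -0.60 at 6 hours, -1.08 at 9 hours and -0.94 at 12 hours. Without the array of 9 hours 11 genes of the list were called lower, and in 6 and 9 against 12 and 15 hours alone 6 were lower and 5 higher. The SREBP octamer CACCCCAC was present in the window of 1 of 18 genes of the list (5.56%) and of none of 5 lower ones, beside 2.97% of all genes and 3.28% of those tested. In fatty acid synthesis FADS3, a member of the desaturase family, fell from 10.57 or more on the first 4 arrays to 9.17 or less on the next 4 (-1.99 ± 0.15, adjusted p = 0.00018). ACSL1, which activates long chain fatty acids, fell by 1.34 and the stearoyl desaturase SCD by 0.67, while FASN (-0.05) and ACLY (-0.05) did not pass and the elongase ELOVL5 rose by 0.51.

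Of 15 tested ATF4 stress response genes 4 (26.7%) were called lower and none higher, against 9.94% and 10.2% of all probes. The median difference of the 15 was -0.14. Leaving out 1 array gave 3 to 4 called lower and 0 to 2 called higher. ASNS, asparagine synthetase, was at 12.81, 12.74, 12.52 and 12.26 and then at 10.91, 10.80, 11.02 and 11.23. The groups did not overlap, for a difference of -1.59 ± 0.13 (adjusted p = 0.00023). CBS, which forms cystathionine from serine and homocysteine, was at 10.15, 10.19, 9.81 and 9.28 and then at 8.36, 8.19, 8.41 and 8.51 (-1.49 ± 0.20, adjusted p = 0.0012). PPP1R15A, a phosphatase subunit that restarts translation, fell earlier, from 12.30 at 3 hours to 10.82 at 6 hours. Its overall difference of -1.59 missed the threshold when either of 2 arrays was left out (adjusted p up to 0.051, without that of 15 hours). PCK2, the mitochondrial PEP carboxykinase, fell by 0.92. ATF4 itself (-0.14), TRIB3 (-0.52) and DDIT3 (-0.75) did not pass. The transporter subunits SLC3A2 and SLC7A5, which together import large neutral amino acids, fell by 0.90 and 0.52, and SLC7A11, a cystine importer, was at least 1.41-fold lower because no later array was above background. The element TGATGNAA was found in the window of 2 of the 15 ATF4 genes (13.3%), beside 3.89% of all genes and 2.26% of those tested, and of 1 of 8 amino acid transporters but none of the 3 lower ones. In ASNS (chr7:97872409-97872658, minus strand), it lay 68 bases before the start, in capitals here.
ASNS: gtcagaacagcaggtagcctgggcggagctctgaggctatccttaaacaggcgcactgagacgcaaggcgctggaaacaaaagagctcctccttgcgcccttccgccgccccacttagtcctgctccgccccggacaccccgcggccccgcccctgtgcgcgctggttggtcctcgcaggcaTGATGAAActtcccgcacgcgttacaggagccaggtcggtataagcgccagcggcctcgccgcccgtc

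Serine and folate metabolism divided by step. PHGDH and PSAT1, the first enzymes of serine synthesis, were both lower. PHGDH was at 13.24, 13.07, 13.07 and 12.81 and then at 12.05, 12.00, 12.11 and 12.00, and fell by 1.00 ± 0.09 (adjusted p = 0.00026), with its largest step from 9 to 12 hours. PSAT1 was at 12.75, 12.73, 12.17 and 11.83 and then at 11.39, 11.35, 11.59 and 11.61, so that much of its difference of -0.88 ± 0.19 (adjusted p = 0.011) was present at 9 hours. The last enzyme, PSPH (-0.19), and the serine hydroxymethyltransferases SHMT1 (-0.19) and SHMT2 (-0.14) did not pass. The folate enzymes MTHFD1L and MTHFD1 rose by 0.77 and 0.73, and GART and ATIC of purine synthesis by 0.67 and 0.56.

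Of the 16 histone genes tested 9 (56.2%) were called lower and 2 (12.5%) higher, against 9.94% and 10.2% of all probes. The median difference of the 16 was -0.89, and leaving out any 1 array gave 9 or 10 lower. H2BC5, printed on the array as HIST1H2BD, was at 11.09, 10.96, 10.66 and 10.04 and then at 8.18, 8.05, 8.32 and 8.38, a difference of -2.45 ± 0.21 (adjusted p = 0.00024). H2BC21 (HIST2H2BE) was at 9.04, 8.84, 8.35 and 7.57 and then at 6.15, 6.04, 6.28 and 6.61, above background on 3 of the 4 later arrays, a difference of -2.18 ± 0.29 (adjusted p = 0.0013). In both, 9 hours was the lowest early array, and every later array lay below it. H2BC11 (HIST1H2BJ) was at least 2.30-fold lower, with no later array above background, and H2AC6 (HIST1H2AC) was lower by a factor of 2.84. The 2 that rose were H4C3 (HIST1H4C), a histone H4 gene, by 1.30 and the variant H2AZ1 (H2AFZ) by 0.30. The 9 lower genes, with a median of -1.61 relative to 0 hours at 12 hours, were at 0.21 at 45 hours. Histone genes are near-identical copies, the file gives no probe sequences, and signal from other members of the family could not be separated.

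The largest decrease of any gene was that of FBXO32, a ubiquitin ligase subunit of muscle atrophy and a target of FOXO factors. It was at 12.66, 12.46, 12.12 and 11.98 and then at 9.78, 9.61, 9.10 and 8.97. The step between 9 and 12 hours exceeded the range within either group, and the difference was -2.94 ± 0.21 (adjusted p = 0.00013). A second, dimmer probe differed by -1.54 and did not pass (adjusted p = 0.23). Of 16 tested FOXO targets 4 (25%) were lower and none higher, against 9.94% and 10.2% of all probes. Without the array of 3, 12, 15 or 18 hours 2 were lower. IRS2, an adaptor of the insulin receptor, fell from 10.98 to 11.69 on the early arrays to 9.83 to 10.46 on the later ones (-1.15 ± 0.18, adjusted p = 0.0026). YPEL3 and GADD45A fell by 1.26 and 1.06 but each lost the call when any of 5 arrays was left out. Their adjusted p was up to 0.089 and 0.073, without the array of 15 and of 3 hours. Other FOXO targets had differences near 0 or above, among them CDKN1B (0.07), SESN1 (0.34) and BCL6 (0.65), none of which passed. WIPI1, which acts in autophagosome formation, and TP53INP2, which recruits autophagy proteins, were also among the 12 largest decreases, at 4.01-fold lower (adjusted p = 0.0013) and a log2 difference of -2.23 ± 0.40 (adjusted p = 0.0054).

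Lysosomal genes made up another group with decreases. Of 30 tested 12 (40%) were called lower and 3 (10%) higher, against 9.94% and 10.2% of all probes. The median difference of the 30 was -0.22, and leaving out 1 array gave 9 to 16 lower. Under median scaling 10 were lower and 7 higher. TPP1, a peptidase, fell from 10.47 to 10.79 to 9.62 to 10.00 (-0.89 ± 0.12, adjusted p = 0.0013). SMPD1, CTSA and LAMP2 fell by 0.78, 0.72 and 0.66, and the cathepsins CTSD and CTSH by 0.51 and 0.59. NEU1, the lysosomal sialidase, fell by 1.07 but lost the call when any of 6 arrays was left out (adjusted p up to 0.097, without that of 12 hours). CTSB and GLA rose by 0.44 and 0.46. The E-box CACGTG, which contains the core of the site bound by TFEB, was present for 4 of the 9 lower genes with a promoter in the table and for 6 of all 20 (30%), beside 7.73% of all genes and 11.2% of those tested. The promoter of NEU1 (chr6:31862822-31863071, minus strand) holds it 126 bases before the start, in capitals.
NEU1: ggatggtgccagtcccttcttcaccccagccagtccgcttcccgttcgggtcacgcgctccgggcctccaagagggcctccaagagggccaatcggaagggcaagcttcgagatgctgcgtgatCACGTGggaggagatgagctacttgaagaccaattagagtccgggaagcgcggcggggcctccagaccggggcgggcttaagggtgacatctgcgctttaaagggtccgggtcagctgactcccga

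Among NRF2 and oxidative stress genes, FTH1 and FTL, the chains of ferritin, had the smallest adjusted p-values of the genes named here, both 2.1e-05. FTH1 was at 14.49, 14.54, 14.53 and 14.39 and then at 13.28, 13.31, 13.15 and 13.03, and FTL was at 15.44, 15.46, 15.51 and 15.44 and then at 14.65, 14.60, 14.48 and 14.59. Both were level until 9 hours and stepped down once, by 1.29 ± 0.07 and 0.88 ± 0.04. FTL had a mean log2 level of 15.02, near the top of the intensity range. Quantile normalization sets levels by rank, and its part in the small SE of FTL was not tested. HMOX1, which degrades haem, took another course. It was at 10.69 and 10.83 at 0 and 3 hours, at 8.18 at 6 hours and 6.79 at 9 hours, and at 5.88, 6.33, 6.30 and 6.45 thereafter. Its difference of -2.88 ± 0.77 (adjusted p = 0.026) reflects high levels on the first 2 arrays. The call was lost when any of 5 arrays was left out (adjusted p up to 0.076, without that of 12 hours). Other targets of NRF2, such as NQO1 (0.28), TXNRD1 (-0.01), GCLM (-0.28) and GCLC (-0.07), did not pass. Of the 16 tested 5 (31.2%) were lower and 1 (6.25%) higher, against 9.94% and 10.2% of all probes. Without the array of 3, 12, 15 or 21 hours 3 were lower.

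**Figure D4:**
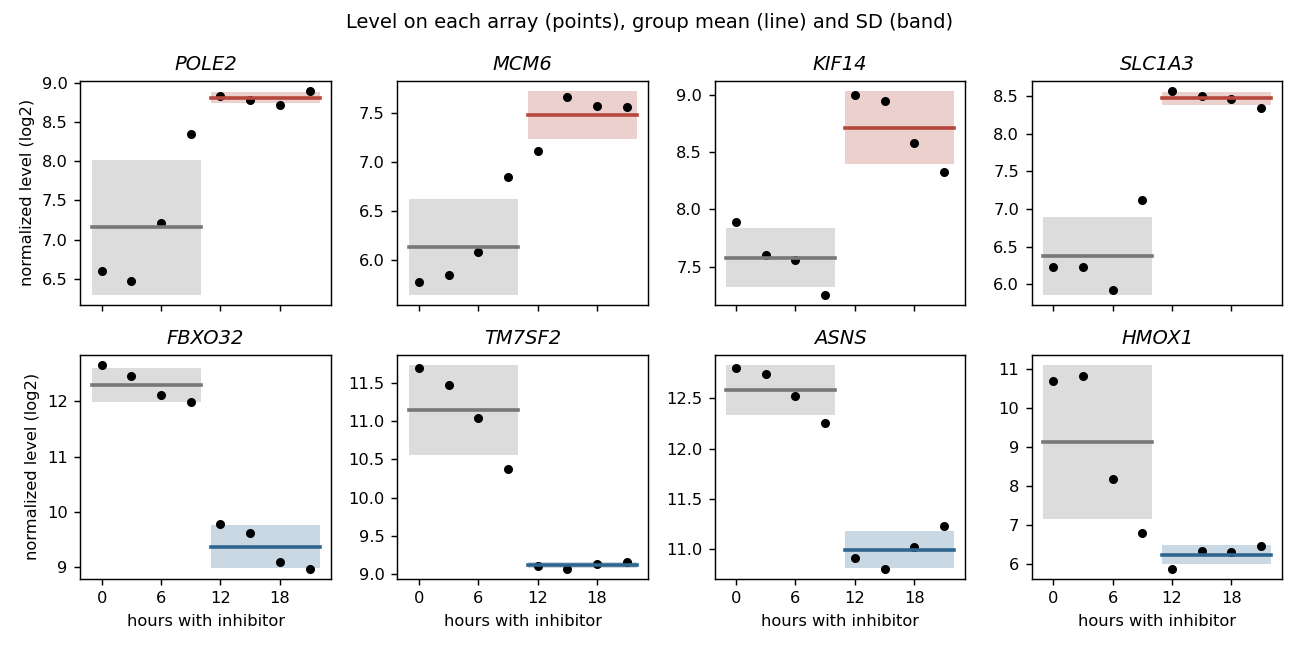
Normalized log2 level (y axis) of 8 genes on each of the 8 arrays (x axis, hours with inhibitor), with points for arrays, lines for the mean of each group of 4 and bands for 1 SD. POLE2, MCM6 and HMOX1 had moved by 9 hours, whereas FBXO32, ASNS and KIF14 moved mainly between 9 and 12 hours.

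A list around glucose and insulin metabolism held proteins that the study discusses, with every PDK isoform, and did not cover all of them. Of its 14 tested genes 6 were called, 14.3% higher and 28.6% lower, against 10.2% and 9.94% of all probes. Since the study chose some of them on these samples, the count is not independent evidence. The glucose transporter SLC2A1 was at 10.00, 9.92, 9.72 and 9.46 and then at 8.58, 8.67, 8.59 and 8.42 (-1.21 ± 0.14, adjusted p = 0.00075). LDHA, which makes lactate, was at 14.70, 14.74, 14.92 and 15.07 and then at 15.59, 15.45, 15.53 and 15.45 (0.64 ± 0.08, adjusted p = 0.00091). Both changed without overlap, in opposite directions. PDK3, which inactivates pyruvate dehydrogenase, rose from 5.81 to 6.42 to 6.93 to 7.33 (0.94 ± 0.16, adjusted p = 0.0040). Its early levels were near background, where the dimmest level detected was 6.10 to 6.18, so the size of this rise is uncertain. VAMP8, a vesicle SNARE, differed by -0.18 ± 0.05 (adjusted p = 0.023), a small change that did not pass under median scaling (adjusted p = 0.48). Its call was also lost when any of 4 arrays was left out (adjusted p up to 0.072, without that of 15 hours). IRS1 (0.16), INSR (0.00), IGF1R (-0.16), SLC2A3 (-0.27), PDK2 (-0.20), PDK4 (0.33), ACLY and ERBB2 (-0.13) did not pass. ERBB2, the gene of the inhibited kinase, was near background, with log2 levels of 6.08 to 6.49. It was detected on 2 of the first and 3 of the next 4 arrays. Its row combines probes, and the level of each could not be seen. A list of glycolysis, glucose transport and pentose phosphate genes had 29 tested. Of these, 7 (24.1%) were higher and 3 (10.3%) lower, against 10.2% and 9.94% of all probes. Without the array of 3, 12 or 15 hours 4 were higher and 1 lower. The rising genes included ENO1 (0.30), TPI1 (0.33) and the lactate exporter SLC16A3 (0.36). PGD of the pentose phosphate pathway fell by 0.58. The binding proteins IGFBP3 and IGFBP6 fell by 1.77 and 0.90.

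Mitochondrial and ribosomal protein genes moved little, and their direction depended on the scaling. Of 73 tested nuclear-encoded subunits of the respiratory chain 14 (19.2%) were higher and 10 (13.7%) lower, against 10.2% and 9.94% of all probes. The counts were 18 and 1 under median scaling, 9 and 15 under cyclic loess and 10 and 3 without the array of 12 hours. UQCRC2, NDUFA7 and ATP5MC1 rose by 0.59, 0.52 and 0.51, and UQCRB had the largest fall among the called, 0.37. Of 73 cytosolic ribosomal proteins 11 (15.1%) were lower and none higher. Under median scaling 3 were lower and 1 higher, and without the array of 0, 3, 12, 15 or 18 hours 5 were lower. Of these 73 genes 45 had a mean log2 level above 15, at the top of the intensity range. Differences may be compressed there, which was not tested. Of 75 mitochondrial ribosomal proteins 7 (9.33%) were higher and 1 (1.33%) lower, no more than the shares of all probes. The counts were 23 and 0 under median scaling and 19 and 2 without the array of 9 hours. Without that of 3, 6, 12, 15, 18 or 21 hours 3 or 4 were higher.

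Among the receptors and the ERK pathway downstream of them, 10% of the 10 tested genes for ERBB receptors, ligands and inhibitors were higher and 10% lower, near the shares of all probes (10.2% and 9.94%). LRIG1 rose and NRG1 fell. LRIG1, a membrane protein that promotes the degradation of ERBB receptors, was at 6.51, 6.86, 6.77 and 6.83 and then at 8.21, 8.06, 8.07 and 7.61 (1.24 ± 0.16, adjusted p = 0.0012), with no overlap. NRG1, a ligand of HER3, was lower by 0.72, but lost the call when any of 3 arrays was left out (adjusted p up to 0.072, without that of 15 hours). EGFR (-0.12), ERBB3 (-0.48), HBEGF (-0.67) and TGFA (-0.09) did not pass, and EREG, AREG, ERBB4 and EGF were not detected often enough. Of 14 ERK feedback genes 14.3% were higher and 14.3% lower. ETV4 and ETV5, transcription factors induced by ERK signalling, rose by 0.83 ± 0.11 and 0.76 ± 0.12 (adjusted p = 0.0014 and 0.0028). PHLDA1 fell by 1.01 ± 0.21 (adjusted p = 0.0096), and IER3 fell by 0.41 but lost the call when any of 5 arrays was left out (adjusted p up to 0.11, without that of 18 hours). DUSP6 (-0.01), SPRY2 (-0.40) and DUSP4 (0.25) did not pass. Of 12 immediate-early factors 3 (25%) were lower (ZFP36, KLF2 and EGR1, none of them without the array of 15 or 18 hours), FOS differed by -0.92 without passing, and MYC by 0.33. The calls of IER3 and EGR1 were lost under median scaling (adjusted p = 0.15 and 0.22).

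The lists of inflammatory, keratinocyte and matrix genes held more genes called lower than higher, from small numbers of calls. IL1A, the cytokine interleukin 1 alpha, was at 7.70, 8.14, 7.60 and 7.43 and then at 5.65, 5.40, 5.56 and 5.67, not above background on any later array, and was at least 2.96-fold lower (adjusted p = 0.00018). Of 18 chemokines and cytokines tested 5 (27.8%) were lower and none higher, against 9.94% and 10.2% of all probes. Without the array of 12 hours 1 was lower. CXCL8 (-0.04) and IL1B (-0.04) were level. Of 13 keratins tested 4 (30.8%) were lower and 1 (7.69%) higher. KRT6B and KRT16 of activated epithelium fell by 1.30 ± 0.16 and 0.65 ± 0.15 (adjusted p = 0.00093 and 0.013). KRT6B had first climbed from 14.52 at 0 hours to 15.27 at 9 hours and then stood at 13.50 to 13.93. Of 21 squamous differentiation genes 4 (19%) were lower and 2 (9.52%) higher. SPRR1A, DSC2 and DSP of cornification and desmosomes fell by 1.00, 1.15 and 0.69. Of 16 matrix genes 4 (25%) were lower and 2 (12.5%) higher. NOV and MMP7 fell by 1.88 and 1.31, and COL8A1 and TNC rose by 1.46 and 0.71. LAMB1, a laminin chain, rose by 1.33. In its list of 18 tested hemidesmosome, laminin and integrin genes 2 (11.1%) were higher and 4 (22.2%) lower. Of 21 interferon-stimulated genes 2 (9.52%) were higher, among them IFI44 (1.28), and 3 (14.3%) lower, near the shares of all probes. The lower ones included ISG20 (-1.90) and STAT2 (-1.10). IFI44 lost the call when either of 2 arrays was left out (adjusted p up to 0.067, without that of 15 hours). None of 14 circadian clock genes was called in limma and 1 had an unadjusted p under 0.05, while 4 were higher in 6 and 9 against 12 and 15 hours alone. BHLHE40, a repressor of the clock, differed by -0.40.

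Targets of other pathways also held decreases. Of 23 tested p53 targets 5 (21.7%) were lower and none higher, with a median of -0.37, against 10.2% higher and 9.94% lower of all probes. Only 2 were lower without the array of 3, 12, 15 or 18 hours and 3 without that of 21 hours or under median scaling, 9 were lower without that of 9 hours, and 2 were higher without that of 0 hours. TP53I3, a quinone oxidoreductase, fell from 12.46 to 12.72 on the early arrays to 11.51 to 11.81 on the later ones (-0.95 ± 0.09, adjusted p = 0.00026). A dimmer probe of TP53I3 differed by -0.41 and did not pass (adjusted p = 0.075). PERP, a membrane protein of desmosomes, fell by 0.42 ± 0.06 (adjusted p = 0.0025). Of 15 hypoxia-inducible genes 4 (26.7%) were lower and 1 (6.67%) higher. BNIP3L, a mitophagy receptor, fell by 0.81 ± 0.10 (adjusted p = 0.00091). CA9 rose by 0.49 but lost the call when any of 5 arrays was left out (adjusted p up to 0.090, without that of 15 hours). Of 20 genes of the actin cytoskeleton and SRF 5 (25%) were lower, among them ACTA2 at -0.48, and 1 (5%) was higher. Without the array of 3 hours 1 was lower, as under median scaling. BAMBI and PMEPA1, inhibitors of BMP and TGF-beta signalling that those pathways induce, fell by 0.69 and 0.50. The metallothioneins MT1F and MT1G moved in opposite directions, by -0.97 ± 0.08 and 0.82 ± 0.17 (adjusted p = 0.00018 and 0.0091). Of 20 cytosolic tRNA synthetases 4 (20%) were higher, VARS1 by 0.69 among them, and 1 (5%) lower, SARS by 0.43, with 2 higher without the array of 3, 12, 15, 18 or 21 hours and 6 higher and 4 lower without that of 9 hours. FKBP5, a glucocorticoid-induced chaperone, was the only 1 of 13 such genes called (7.69%), at 0.29. It lost the call when any of 4 arrays was left out (adjusted p up to 0.098, without that of 12 hours).

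The largest increase of any gene was that of SLC1A3, a glutamate and aspartate transporter. It was at 6.23, 6.24, 5.93 and 7.12 and then at 8.56, 8.50, 8.46 and 8.35, a rise of 2.09 ± 0.23 (adjusted p = 0.00062). Apart from 9 hours, its early levels were near background, where the dimmest level detected was 6.10 to 6.18. The size of this rise, and so its rank, is uncertain. CDH4, a cadherin, was at 7.62, 7.51, 6.33 and 7.33 and then at 9.33, 9.05, 9.24 and 8.75 (1.90 ± 0.27, adjusted p = 0.0017). The other large increases were KCTD12 (1.69), HS6ST2 (1.61) of heparan sulfate synthesis, complement component C5 (1.61), ST3GAL5 (1.60), the ganglioside GM3 synthase, AKR1B10 (1.58), TNFRSF6B (1.55) and COL8A1, besides POLE2, MCM10 and KIF15. KCTD12 was detected on 3 of its 4 early arrays, with a lowest level of 5.71, so the size of its rise is uncertain as well. TNFRSF6B had a second probe of similar brightness that differed by -0.11 and did not pass (adjusted p = 0.53). That gene therefore has no settled direction here. Among the large decreases, the gene printed as P8, a symbol that the gene table gives to several genes, was at 13.19, 12.69, 11.73 and 10.44 and then at 8.64, 8.95, 9.39 and 9.52 (-2.89 ± 0.50, adjusted p = 0.0041). PRODH, proline dehydrogenase, and SELENOP, a selenium carrier, were at least 3.59-fold and 3.09-fold lower, with no later array above background.

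**Figure D5:**
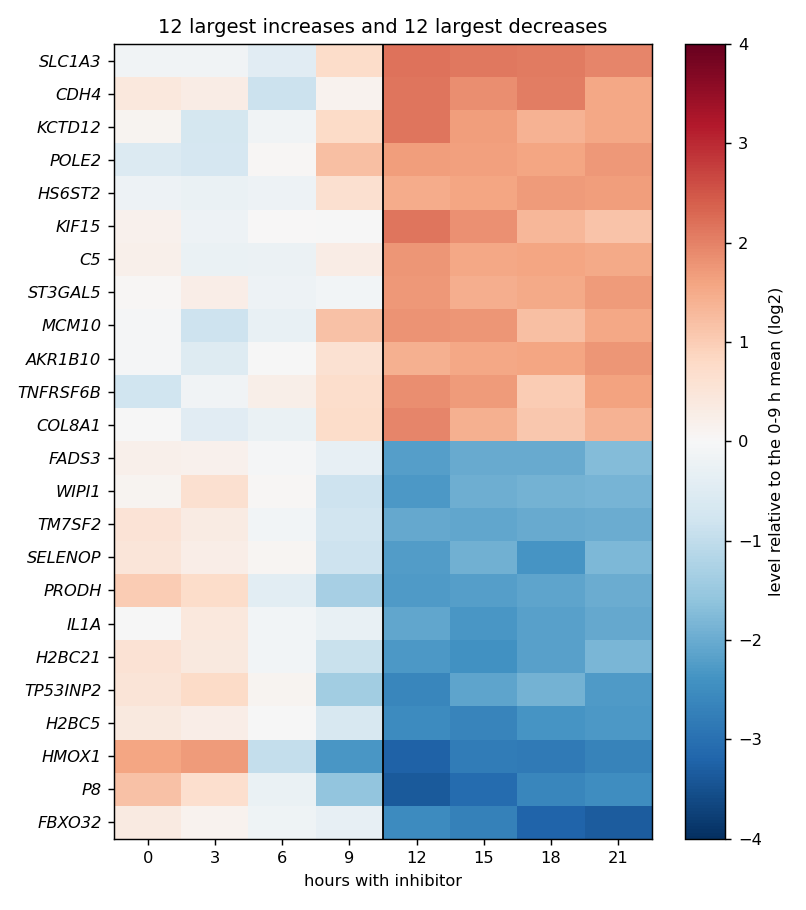
Level of the 12 genes with the largest increase and the 12 with the largest decrease on each of the 8 arrays (x axis, hours with inhibitor), as the log2 difference from the mean of 0 to 9 hours (colour scale). The line separates the groups. Within the first group HMOX1, P8 and PRODH had the widest ranges of the 24 genes, and within the second KIF15 had, from 9.36 at 12 hours to 8.34 at 21 hours.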

How the data were processed

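Total RNA of MCF-10A cells was profiled at 16 time points on Illumina human Ref8v2 arrays, with 1 array each. The authors deposited a table of bead intensities, not log-transformed, with a detection p-value for each of 20589 rows and each array. The software that summarized the beads is not given in the sources used here. The deposited p-values compare a row with the negative control beads and are multiples of 1 in 708 within 0.001 on rows of 1 probe, from which the mean and SD of the negative controls of each array were inferred. There were 19092 rows of 1 probe and 1497 that combine probes.

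Intensities were corrected by normexp with these values, given an offset of 16, quantile normalized over all 16 arrays and transformed to log2. The study's methods also name quantile normalization, across the arrays it compared, without stating that these were the 16 used here. The 8 arrays compared were fitted in limma 3.58.1 (R 4.3.3) with lmFit and eBayes with an intensity trend, for probes detected at p under 0.05 on 3 or more arrays. Adjusted p-values are from limma with Benjamini-Hochberg adjustment over all 11054 probes, called under 0.05. A fold of a probe at background on all arrays of a group is a lower bound against the dimmest level detected. Precision is limited by having 1 array at each time point.

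Of 10516 array symbols tested, 7739 were current, 2005 were matched as synonyms and 772 had no single match and kept the array's name. A gene was represented by its brightest probe. For some genes this was a row that combines probes, among them ERBB2, ETV5, H2BC5 and KRT18. The 44 gene lists and the genes named were chosen with earlier results of these data known. Named by rule were the 12 largest increases and 12 largest decreases detected on all 4 arrays of the higher group, up to 4 called members of each list (the 2 brightest where none was called) and a list of glucose and insulin genes that the study discusses. Other list members in the text were chosen after their values were seen. Probe sequences were not used here, so cross-hybridization between near-identical genes (histones, keratins, HSPA1A and HSPA1B, ferritins) could not be told apart. Promoters were the 250 bases before the start in RefSeq, on GRCh38.p14. Alternatives covered background correction, offset, normalization, detection filter, thresholds, arrays fitted and each array left out. The fitting was tested on simulated data. Some genes counted in the lists are not reported here by name.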

Additional observations from a re-analysis of the deposited data

Results flagged for a closer look

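In each group of 4 arrays, the gap of the highest or lowest array to its nearest neighbour was compared with the whole range of the group for the 167 genes named by rule, which made 334 sets. In 10 of them (2.99%) this ratio exceeded Dixon's 95% critical value for 4 values. Of the 10, 9 are described here. Chance alone gives about 1 in 20 groups. The 4 arrays are different time points, and array and time cannot be told apart.

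In the early group, CDKN1C was lowest at 9 hours, at a log2 level of 7.67 against 8.56 to 8.70 (ratio 0.862). HS6ST2 was highest at 9 hours, at 7.52 against 6.61 to 6.67 (0.928). E2F8 was highest at 0 hours, at 7.17 against 5.83 to 6.01 (0.861).

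In the later group, MRPL12 of the mitochondrial ribosome was lowest at 12 hours (0.938), with the other 3 arrays at 12.11 to 12.12. PECAM1 was highest at 15 hours, at 7.61 against 7.03 to 7.11 (0.873), and SNAI2 was lowest at 18 hours, at 8.82 against 9.34 to 9.37 (0.947). At 21 hours IGF1R was lowest, at 6.04 against 6.36 to 6.40 (0.882), RPL17 was highest, at 11.94 against 11.58 to 11.62 (0.901), and TNFAIP3, an inhibitor of NF-kB signalling, was lowest, at 6.84 (0.946).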

How the results depend on the processing

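Against 1122 probes higher and 1099 lower, median scaling gave 1954 and 623, fitting all 16 arrays gave 1811 and 1723, an adjusted p under 0.01 gave 432 and 391, and a change of at least 1.7-fold in addition gave 316 and 271. Leaving out 1 array gave 592 to 1607 higher and 560 to 1527 lower, with the lowest counts without the array of 15 hours and the highest without that of 9 hours. The cause of these shifts was not tested, apart from the stricter thresholds, which lower the counts by construction. The counts stayed within 1.5 times with no background correction (1136 and 1103), an offset of 50 (1122 and 1094), cyclic loess (1100 and 1114), quantile normalization of the 8 arrays alone (1121 and 1097), no detection filter (957 and 890), detection on all 8 arrays (1050 and 1064), no intensity trend (1016 and 1004) and 6 and 9 against 12 and 15 hours (1126 and 1020). Separate weights for the groups, added after seeing the data, gave 1164 and 1097. Of the 157 called genes named by rule, 104 kept the call without each array and 97 under every alternative but the 2 stricter thresholds. BHLHE40, not called, turned from -0.40 to 0.57 in the comparison of 6 and 9 with 12 and 15 hours, where the cause was not tested. No paired analysis was possible because each time point has 1 array and the labels give no number shared between groups. The chip as a block was not run because the labels and columns name no chip. Probes near background have compressed differences. Those at the top of the intensity range may have them too, which was not tested.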
